A study of Mus musculus with 5 samples.

Results

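Markers of recruited macrophages and neutrophils were followed in mouse liver tumours with and without late expression of Prox1, the homeobox transcription factor of hepatocytes. The 10 genes were taken by name, and each matched 1 of the 55397 Ensembl genes in the deposited table. They were Spp1, Trem2, Gpnmb and Cd9, which mark lipid-associated macrophages, Ly6c2, Ccr2, Lyz2 and Cx3cr1, which mark monocytes and the macrophages that arise from them, Csf3r, a receptor of neutrophils, and Mrc1, a scavenger receptor. All 10 were among the 17105 genes tested.

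The tumours came from female C57BL/6N mice that were injected at 8 weeks of age. In all mice, plasmids delivered by hydrodynamic tail vein injection, a rapid large-volume injection that brings DNA into hepatocytes, carried a Sleeping Beauty transposase under a CMV promoter and transposons in which the EF1a promoter drove Akt and the NOTCH intracellular domain (NICD) with the doxycycline-responsive activator rtTA. Such Akt/Notch tumours are a model of cholangiocarcinoma (CCA), the cancer of bile ducts. The transposon under the Tre promoter, which rtTA activates, held FLAG-tagged mouse Prox1 and GFP in 3 samples (Prox1 OE) and GFP without Prox1 in 2 samples (Control). All mice ate food with 6.25% doxycycline from day 21, which per the labels induced Prox1 between weeks 3 and 4, and whether a tumour was taken after that week or at a humane endpoint was not given per sample. Nothing in the labels said whether the samples of a group came from separate mice, so p-values measure the spread between these samples, which may be technical.

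Macrophages in the liver have several origins. Kupffer cells reside in the sinusoids, whereas monocytes leave the bone marrow through the chemokine receptor Ccr2 and can become macrophages in injured or tumour-bearing tissue, where a lipid-handling state is marked by Trem2, Gpnmb, Cd9 and Spp1. Neutrophils are produced and mobilised through Csf3r, the receptor of granulocyte colony-stimulating factor. Several of these genes are not restricted to myeloid cells, since bile duct cells also express Spp1 and Cd9 and liver sinusoidal endothelium also expresses Mrc1. In dissected tumours, fewer cells of a type and less RNA per cell cannot be told apart.

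The promoters of 4 members are given to show their regulatory DNA, each 300 bases from 250 before to 50 after the annotated start, read 5′ to 3′ on the strand of the gene (RefSeq, GRCm38.p6). Mrc1 and Cd9 were the members that passed the test, in opposite directions, and Trem2 and Csf3r stand for the macrophage and neutrophil receptors. Capitals mark the PU box, the core of the binding motif of the myeloid factor PU.1, written GAGGAA or, on the other strand, TTCCTC. The windows are chr2:14229164-14229463 (plus strand) for Mrc1, chr6:125494711-125495010 (minus strand) for Cd9, chr17:48346151-48346450 (plus strand) for Trem2 and chr4:126024409-126024708 (plus strand) for Csf3r.
Mrc1: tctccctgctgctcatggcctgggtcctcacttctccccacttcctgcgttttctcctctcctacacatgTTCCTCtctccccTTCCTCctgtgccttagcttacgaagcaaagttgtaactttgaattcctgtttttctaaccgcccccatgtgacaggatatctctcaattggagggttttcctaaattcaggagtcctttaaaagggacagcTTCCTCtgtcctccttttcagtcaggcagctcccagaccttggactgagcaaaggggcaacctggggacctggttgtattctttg
Cd9: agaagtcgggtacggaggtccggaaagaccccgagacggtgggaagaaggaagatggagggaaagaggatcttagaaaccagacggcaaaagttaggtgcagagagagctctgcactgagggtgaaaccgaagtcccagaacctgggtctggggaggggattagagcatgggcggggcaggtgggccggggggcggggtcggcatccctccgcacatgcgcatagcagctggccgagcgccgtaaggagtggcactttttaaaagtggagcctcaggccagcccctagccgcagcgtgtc
Trem2: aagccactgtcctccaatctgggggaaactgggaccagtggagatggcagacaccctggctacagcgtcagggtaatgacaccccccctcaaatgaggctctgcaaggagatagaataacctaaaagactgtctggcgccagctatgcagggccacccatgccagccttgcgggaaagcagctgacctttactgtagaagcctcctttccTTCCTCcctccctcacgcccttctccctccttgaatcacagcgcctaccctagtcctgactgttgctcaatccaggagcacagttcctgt
Csf3r: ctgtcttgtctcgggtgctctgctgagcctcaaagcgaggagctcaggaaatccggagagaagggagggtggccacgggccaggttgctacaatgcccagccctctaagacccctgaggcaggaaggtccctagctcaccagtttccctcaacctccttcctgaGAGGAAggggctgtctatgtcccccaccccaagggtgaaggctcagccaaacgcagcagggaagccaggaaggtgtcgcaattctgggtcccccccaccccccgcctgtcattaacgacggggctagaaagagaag
The Mrc1 window held 3 PU boxes, which began 180, 167 and 35 bases before the start. The Trem2 window held 1 at 40 bases and the Csf3r window 1 at 86 bases before the start, and these letters were not in the Cd9 window. Over all members, 5 of 10 (Csf3r, Ly6c2, Mrc1, Spp1 and Trem2) had a PU box on either strand, in 6 of the 12 annotated windows of the members. Among 32851 mouse promoters of this length, 28.3% had it. CATGTG, an E-box bound by MITF and TFE factors, was in the windows of 2 members (Cd9 and Mrc1), against 14.2% of all promoters. TGACTCA, an AP-1 motif, was in that of 1 (Gpnmb), against 5.2% of all promoters. These matches are descriptions of the letters, and no binding was measured.

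Expression was measured by bulk RNA-seq with between 48740863 and 56629477 reads per library. Values are normalised counts, the reads of a gene divided by a size factor of the library, and are listed by replicate number. A gene with 3 reads or fewer was treated as at the floor, which was worth 2.46 to 3.54 normalised counts. The induced gene was examined first. Prox1 stood at 4153 and 4664 normalised counts in Control tumours and at 48090, 11113 and 8231 in Prox1 OE tumours, so that the groups did not overlap and Prox1 OE replicate 1 was far above the others (log2 fold change 1.90, limma adjusted p = 0.061). Without that library the Prox1 log2 fold change was 1.12 and passed the test (limma adjusted p = 0.0056), without Prox1 OE replicate 3 it was 2.39 (limma adjusted p = 0.032), and edgeR also called Prox1 (adjusted p = 0.047). The labels name the cell type as transformed hepatocytes, but the libraries also held RNA of other cells, among them the myeloid adaptor gene Tyrobp, which had at least 1772 normalised counts in every library.

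Mrc1 rose 1.76-fold and Cd9 fell 1.51-fold in Prox1 OE tumours, and the other 8 members did not pass the test. Thus 2 of 10 members were called, 1 in each direction, where 33.3% of all genes tested were called (17.1% higher and 16.2% lower), and 3 of 10 had an unadjusted p under 0.05, 2 higher and 1 lower, as did 45.8% of all genes (22.8% higher and 22.9% lower). By DESeq2 on the recovered reads, 3 were called higher (Mrc1, Trem2 and Lyz2) and 1 lower (Cd9), beside 17.3% and 16.1% of the 19244 genes it tested. When libraries were scaled by total reads, 0 were called higher and 2 lower (Cd9 and Spp1) by limma, beside 8.62% and 39.9%. Trem2, Ly6c2, Lyz2 and Mrc1 were higher in every Prox1 OE library than in either Control library, Spp1 and Cd9 were lower, and the remaining 4 overlapped. Of all genes tested, 63.3% did not overlap between the groups, 30.9% in the higher and 32.4% in the lower direction. The median log2 fold change of the members was 0.47, beside -0.02 over all genes tested. The members' median was 0.16 without Control replicate 2, 0.21 without Prox1 OE replicate 1 and 0.044 when scaled by total reads, where the median of all genes was -0.44.

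**Figure D1:**
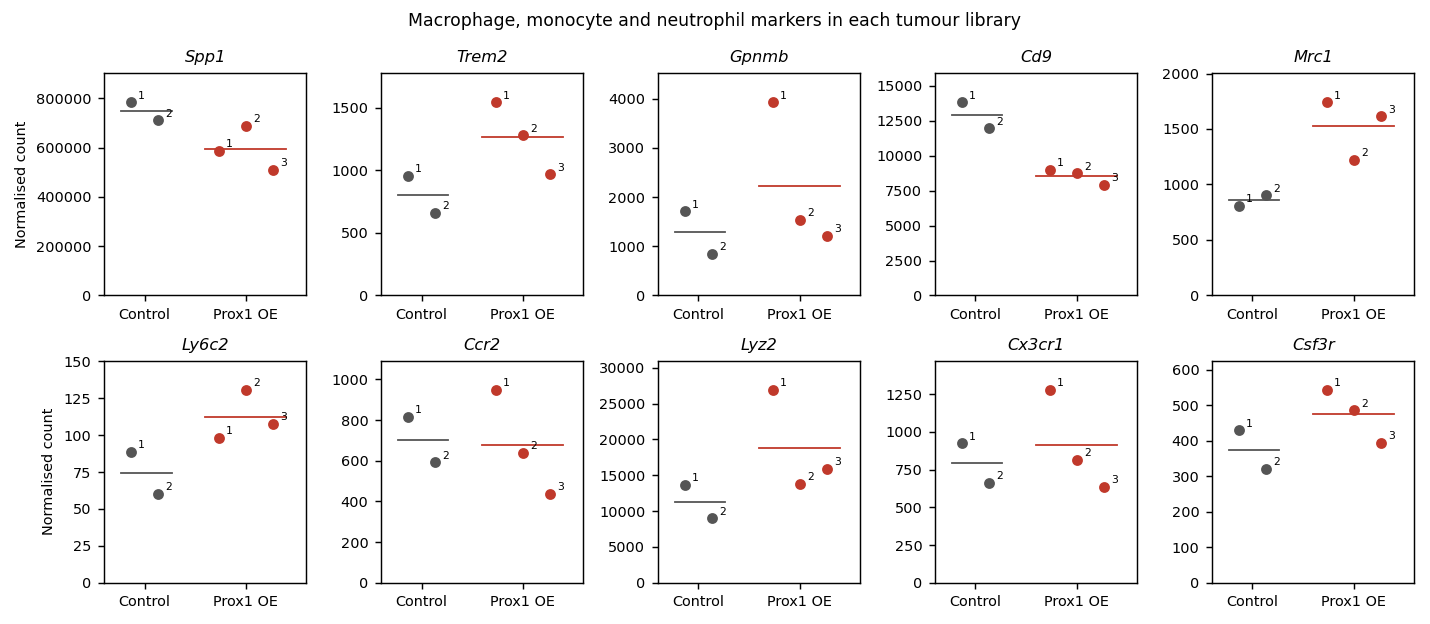
Normalised counts of the 10 members in each library, 1 panel per gene with its own axis from 0, with the replicate number beside each point and a line at the mean of each group (2 Control and 3 Prox1 OE libraries). The groups lie apart for Mrc1, Trem2, Ly6c2 and Lyz2, higher in Prox1 OE, and for Cd9 and Spp1, lower in Prox1 OE, and they overlap for Gpnmb, Ccr2, Cx3cr1 and Csf3r.

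Levels differed widely between members. Per kilobase of exon, so that genes can be set side by side, Spp1 led with a mean of 398407 normalised counts over the 5 libraries, followed by Lyz2 with 12046 and Cd9 with 5030. In each of these steps every library kept the order and the ranges of the libraries did not overlap. Gpnmb (284 per kilobase), Trem2 (218), Mrc1 (198), Cx3cr1 (192), Csf3r (120) and Ccr2 (102) formed a middle group, in which the ranges of neighbours overlapped and Gpnmb was above Trem2 in only 2 of 5 libraries. Ly6c2 was lowest with 35.5 per kilobase, below Ccr2 in all 5 libraries.

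**Figure D2:**
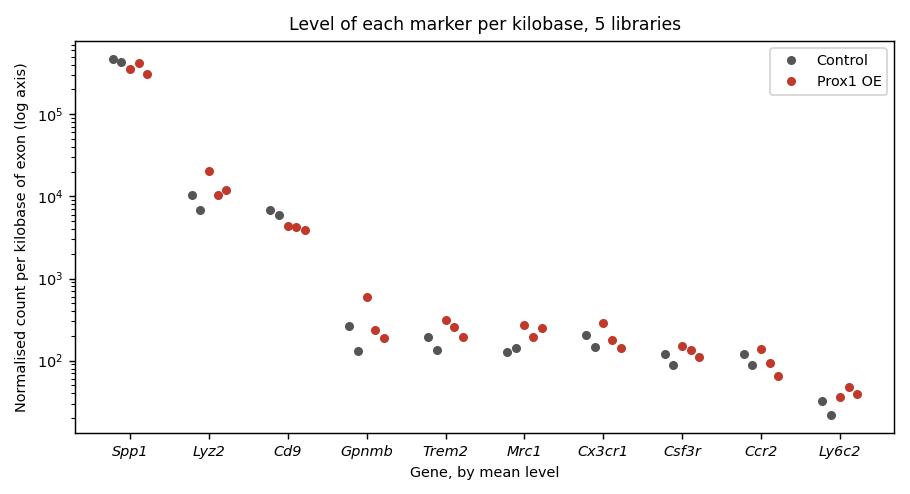
Level of each member in each library, as normalised counts per kilobase of exon on a log axis, ordered by the mean over the 5 libraries, with 2 Control points before 3 Prox1 OE points per gene. Spp1 stands above all others at a mean of 398407 per kilobase and Ly6c2 below all others at 35.5.

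Spp1 encodes osteopontin, a secreted phosphoprotein (mm10, chromosome 5, 104435118 to 104441050). It had 784749 and 712010 normalised counts in Control tumours and 587974, 688825 and 509317 in Prox1 OE tumours. The 3 Prox1 OE values lay below both Control values, by a margin that was small for replicate 2. The annotated gene Gm42793 overlaps it on the same strand and shares 5.85% of its 100-base windows. On the log2 scale the groups differed by -0.34 (95% interval -1.21 to 0.53, limma adjusted p = 0.51). Spp1 was ranked 1 and 2 among all genes in the Control libraries, with 1.81% and 1.55% of reads, and ranked 8, 5 and 10 in Prox1 OE tumours, with 1.02%, 1.20% and 0.777%. When libraries were scaled by their total reads instead, which moved the median of all genes to -0.44, the Spp1 value was -0.77 and passed the test (limma adjusted p = 0.036).

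Cd9 encodes a tetraspanin, a membrane protein that organises other receptors (mm10, chromosome 6, 125460266 to 125494791), and the genes Gm28809 and Gm26728 overlap it on the other strand. Control libraries held 13829 and 11959 normalised counts and Prox1 OE libraries 8971, 8728 and 7917, with means of 12894 ± 1323 (SD, n = 2) and 8539 ± 552 (SD, n = 3). Every Prox1 OE library was below both Control libraries. Cd9 fell by 0.59 on the log2 scale (SE 0.13, limma adjusted p = 0.012). Without Control replicate 1 or 2 the call was lost (limma adjusted p = 0.15 and 0.054).

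Genes of bile duct cells, which also express Spp1 and Cd9, were lower in the same tumours. Of 6 cholangiocyte genes, 5 fell and none rose, with a median log2 fold change of -1.56, and their summed normalised counts ran from 36124 to 39954 in Control and from 11152 to 14619 in Prox1 OE libraries. Krt7, a keratin of bile ducts, fell by 2.50 (limma adjusted p = 0.0024) and Sox9, a transcription factor of bile duct cells, fell by 1.21 (limma adjusted p = 0.0026). None of the 6 was at 0 in any library, and the number that fell was 5 when scaled by total reads and 4 without Control replicate 1. The part of this change in the Spp1 and Cd9 values was not tested.

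Trem2 is a lipid-binding receptor of macrophages that signals through the adaptor Tyrobp (mm10, chromosome 17, 48346401 to 48354147). It had 953 and 658 normalised counts in Control tumours and 1543, 1280 and 969 in Prox1 OE tumours. The groups did not overlap, although Control replicate 1 and Prox1 OE replicate 3 were nearly level. The log2 fold change of 0.65 (SE 0.23, 95% interval 0.10 to 1.20) missed the threshold with limma (adjusted p = 0.069) and passed it with DESeq2 (adjusted p = 0.035), and without Prox1 OE replicate 3 it was 0.83 (limma adjusted p = 0.034). Without Control replicate 2 it was 0.38 (limma adjusted p = 0.39), and when scaled by total reads 0.22 (limma adjusted p = 0.53). Tyrobp itself rose by 0.82 on the log2 scale, from 2406 and 1772 to 3942, 3481 and 3494 normalised counts (limma adjusted p = 0.0080).

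Gpnmb encodes a glycoprotein of endosomes and lysosomes (mm10, chromosome 6, 49036546 to 49070929). It had 1712 and 850 normalised counts in Control tumours and 3926, 1539 and 1218 in Prox1 OE tumours. The groups overlapped, and Prox1 OE replicate 1 was far above every other library. Its highest library was 4.62 times its lowest, the widest range of the 10 members, against 1.54 for Spp1, the narrowest. The log2 fold change was 0.69 (95% interval -0.48 to 1.86, limma adjusted p = 0.32), and it was 0.18 without Prox1 OE replicate 1 or without Control replicate 2 and 1.19 without Control replicate 1, none of which passed the test.

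Other genes of the lipid-associated macrophage programme were followed in a list of 19. Of these, 11 rose, 1 fell and 7 did not pass the test, with a median log2 fold change of 0.78, whereas 7 rose and 3 fell when scaled by total reads, and 2 rose and 0 fell by limma without Control replicate 1. Apoe, a lipid carrier that hepatocytes also produce in large amounts, led the list, with 276399 and 327037 normalised counts in Control tumours and 663924, 849955 and 971362 in Prox1 OE tumours (log2 fold change 1.44, limma adjusted p = 0.022). The genes that rose were Acp5, Apoe, Atp6v0d2, Cd36, Ctsb, Ctsd, Ctsl, Ctsz, Lipa, Lpl and Plin2, with log2 fold changes from 0.69 (Ctsb) to 1.44 (Apoe). The fatty acid binding protein Fabp5 fell by 0.62 (limma adjusted p = 0.012). Syngr1 (-0.89, limma adjusted p = 0.053) and Cd63 (-0.40, limma adjusted p = 0.11) did not pass the test but were lower in every Prox1 OE library. Lgals3 and Mmp12 differed by -0.08 and -0.16, with overlap between the groups. Without overlap, 13 of the 19 were higher and 3 lower (30.9% and 32.4% of all genes tested). The summed list ran from 451696 to 502095 normalised counts in Control and from 999299 to 1301470 in Prox1 OE libraries, and hepatocyte genes moved beside it. Of 6 hepatocyte genes, 5 rose and none fell, and their sum was 575479 to 979187 in Control and 2012480 to 3204440 in Prox1 OE libraries, a change whose part in the list was not tested. Without Control replicate 1, 0 hepatocyte genes were called by limma, with 3 at an unadjusted p under 0.05 (median log2 fold change 1.23).

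Ly6c2 encodes a surface protein of classical monocytes (mm10, chromosome 15, 75108158 to 75111970). It was the least abundant member, with 88.7 and 60.2 normalised counts in Control tumours and 98.2, 131 and 108 in Prox1 OE tumours. Each Prox1 OE value was above both Control values, the gap to Control replicate 1 being small. Between groups the log2 difference was 0.60 (95% interval -0.04 to 1.24, limma adjusted p = 0.13), and it was 0.33 without Control replicate 2 and 0.18 when scaled by total reads. Of the 100-base windows of its transcripts, 5.81% are shared with the neighbouring copy Ly6c1, so that part of its reads may have been split or left out by the counting. Ly6c1, which endothelium also expresses, differed by 0.73 on the log2 scale (limma adjusted p = 0.14), or by 0.155 to 1.295 when single libraries were left out.

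Ccr2 is the receptor of the chemokine Ccl2 (mm10, chromosome 9, 124101950 to 124113557). It had 816 and 593 normalised counts in Control tumours and 950, 638 and 437 in Prox1 OE tumours. The highest and the lowest of the 5 values were both in Prox1 OE libraries. Its log2 fold change was -0.11 (95% interval -0.85 to 0.62, limma adjusted p = 0.80), and it was 0.16 without Prox1 OE replicate 3 and 0.12 without Control replicate 1, so that its sign rested on single libraries.

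Lyz2 encodes the lysozyme of macrophages and neutrophils (mm10, chromosome 10, 117277331 to 117282321). It had 13636 and 9021 normalised counts in Control tumours and 26966, 13777 and 15865 in Prox1 OE tumours. Prox1 OE replicate 1 was the highest, and replicate 2 was only just above Control replicate 1, so that the groups met without overlapping. The log2 fold change was 0.70 (95% interval -0.005 to 1.41, limma adjusted p = 0.11), and DESeq2 gave an adjusted p of 0.044. Without Control replicate 2 or without Prox1 OE replicate 1 it was 0.41 (limma adjusted p = 0.49 and 0.16), and when scaled by total reads 0.27 (limma adjusted p = 0.49). Its copy Lyz1, the lysozyme of Paneth cells, shares 1.97% of the 100-base windows of Lyz2 and had at most 48.1 normalised counts in any library.

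Cx3cr1, the receptor of fractalkine on patrolling monocytes and tissue macrophages, had 924 and 660 normalised counts in Control tumours and 1280, 814 and 637 in Prox1 OE tumours (mm10, chromosome 9, 119901616 to 120069879). The groups overlapped, and the lowest value was in Prox1 OE replicate 3. Its log2 fold change was 0.16 (95% interval -0.53 to 0.85, limma adjusted p = 0.70), and it was -0.08 without Control replicate 2 and -0.12 without Prox1 OE replicate 1. Its annotated span overlaps other genes on both strands, and how the authors counted reads in such overlaps is not given in the sources used here.

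Of 17 other monocyte genes, 3 rose, 3 fell and 11 did not pass the test, shares close to the 17.1% and 16.2% of all genes, with a median log2 fold change of -0.04 (-0.14 without Control replicate 2 and 0.12 without Control replicate 1). When scaled by total reads 1 rose and 4 fell, and when either Control library was left out 0 rose and 2 fell by limma (3 and 2, or 3 and 3, at an unadjusted p under 0.05). Treml4, a receptor of patrolling monocytes, rose by 1.01 (limma adjusted p = 0.020), the integrin gene Itgal rose by 0.71 (limma adjusted p = 0.049) and the chemokine gene Ccl9, the most abundant of the list, rose by 0.95 (limma adjusted p = 0.0081). Vcan, a matrix proteoglycan of classical monocytes that stromal cells also produce, fell by 1.58, from 960 and 806 normalised counts to 265, 339 and 282 (limma adjusted p = 0.0024). Cd14, the lipopolysaccharide co-receptor of monocytes and macrophages, fell by 1.13 (limma adjusted p = 0.0055) and the integrin gene Itgam, of monocytes and neutrophils, by 0.73 (limma adjusted p = 0.023). The summed list overlapped between the groups, at 11338 to 12118 normalised counts in Control and 11544 to 13130 in Prox1 OE libraries.

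Csf3r, the receptor through which neutrophils are produced and mobilised, had 430 and 320 normalised counts in Control tumours and 544, 485 and 395 in Prox1 OE tumours (mm10, chromosome 4, 126024550 to 126044440). Prox1 OE replicate 3 lay below Control replicate 1, so that the groups overlapped. Its log2 fold change was 0.34 (95% interval -0.14 to 0.82, limma adjusted p = 0.23). When scaled by total reads it was -0.09, and it was 0.13 without Control replicate 2 and 0.55 without Control replicate 1. Which cells held the Csf3r RNA was not tested.

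Of 21 other neutrophil genes, 14 could be tested, and 0 rose and 2 fell by limma, where 16.2% of all genes were called lower, with a median log2 fold change of 0.03 (-0.17 without Control replicate 2 and 0.19 without Control replicate 1). At an unadjusted p under 0.05 the counts were also 0 and 2 (22.9% of all genes in the lower direction), and edgeR called 0 and 1 and DESeq2 0 and 2. When scaled by total reads 4 fell. None was called by limma with upper-quartile factors, with no filter on low values, without the variance trend, without Control replicate 1 or without Prox1 OE replicate 3. The genes that fell were Trem1, an activating receptor of neutrophils and monocytes, by 1.39 (limma adjusted p = 0.046, a call lost in 8 of 15 alternatives), and Padi4, a histone-modifying enzyme of neutrophils (-1.24, limma adjusted p = 0.045), the latter chosen after its value was seen. S100a9, a calcium-binding protein that is among the most abundant of mature neutrophils, had 376 and 217 normalised counts in Control tumours and 270, 466 and 312 in Prox1 OE tumours. These values overlapped (log2 fold change 0.25, limma adjusted p = 0.56). Ly6g, the defining surface marker of mouse neutrophils, had at most 3 reads in each of the 5 libraries, so that a difference in it was not detectable at this depth. Besides Ly6g, the genes not tested were Cxcr1, Cd177, Camp, Ngp, Elane and Mpo, each averaging under 10 normalised counts. The summed list overlapped between the groups, at 1372 to 1751 normalised counts in Control and 1389 to 1727 in Prox1 OE libraries.

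Mrc1 encodes the mannose receptor, an endocytic receptor of macrophages (mm10, chromosome 2, 14229392 to 14332057), whose span holds the microRNA gene Mir511. It had 810 and 904 normalised counts in Control tumours and 1741, 1225 and 1613 in Prox1 OE tumours, with means of 857 ± 66.1 (SD, n = 2) and 1526 ± 269 (SD, n = 3). Every Prox1 OE library was above both Control libraries. Mrc1 rose by 0.82 on the log2 scale (SE 0.17, 95% interval 0.41 to 1.22, limma adjusted p = 0.012). The call was lost when libraries were scaled by total reads (0.39, limma adjusted p = 0.10), where the median of all genes was -0.44, and without Control replicate 1 (limma adjusted p = 0.11) or Control replicate 2 (limma adjusted p = 0.057).

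Genes of other cells that express Mrc1 were set beside it. Of 12 Kupffer cell genes, 8 rose and 0 fell by limma, with a median log2 fold change of 1.00 and a sum of 28545 to 30903 normalised counts in Control and 49158 to 67135 in Prox1 OE libraries. The number that rose was 7 when scaled by total reads and 4 without Control replicate 1. Clec4f, a lectin that defines mouse Kupffer cells, rose by 1.58 (limma adjusted p = 0.016) and the complement gene C1qb by 0.87 (limma adjusted p = 0.0039). The complement genes C1qa (0.81) and C1qc (0.91) were also among those called, and which macrophages held their RNA was not tested. Of 8 scavenger macrophage genes tested out of 9, 3 rose and 5 did not pass the test, with log2 fold changes down to -0.30 (Pf4). Those that rose were Folr2, a folate receptor, by 1.37 (limma adjusted p = 0.0061), Retnla, and the scavenger receptor Stab1, which sinusoidal endothelium also expresses, by 0.53 (limma adjusted p = 0.021). Retnla, a secreted protein of alternatively activated macrophages, was called higher (limma adjusted p = 0.037), with both Control libraries at 3 reads or fewer and 57.3, 10.6 and 10.4 normalised counts in Prox1 OE tumours. Because Retnla passed the filter on low values only through the Prox1 OE libraries, its call is no support for a rise of the list. Without Control replicate 1 none of the 8 was called. The list summed to 4218 to 4849 normalised counts in Control and 5869 to 6720 in Prox1 OE libraries.

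Of 7 sinusoidal endothelium genes, 3 rose and none fell, with a median log2 fold change of 0.71 (0.38 without Control replicate 1 and 0.47 without Prox1 OE replicate 3) and a sum of 7070 to 9450 normalised counts in Control and 11154 to 15915 in Prox1 OE libraries. When scaled by total reads 3 rose and 2 fell, and without Control replicate 1 the number that rose was 2. In the other direction, Lyve1, a hyaluronan receptor, differed by -0.53 (limma adjusted p = 0.21) and Pecam1, an adhesion molecule of endothelium, by -0.27 (limma adjusted p = 0.15), and Pecam1 was lower in every Prox1 OE library. Clec4g, a lectin of sinusoidal endothelium, rose by 2.61 (limma adjusted p = 0.0035) and Stab2, its hyaluronan receptor, by 1.04 (limma adjusted p = 0.011). None of the Kupffer cell or sinusoidal endothelium genes was at 0 in any library. The part of either cell type in the Mrc1 value was not tested.

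**Figure D3:**
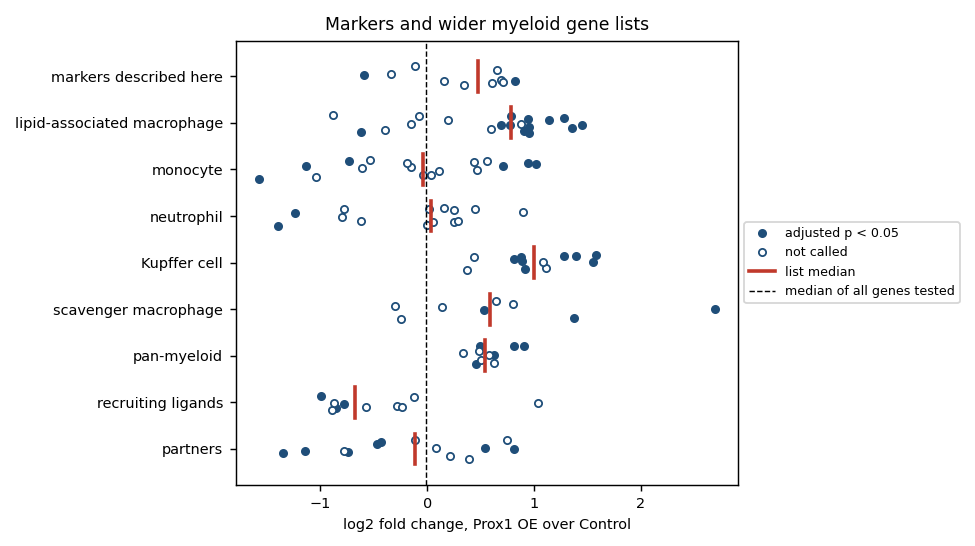
Log2 fold change (Prox1 OE over Control) of every tested gene of the members and 8 wider lists, 1 row per list, with genes that passed the test filled, others open, a bar at the median of the list and a dashed line at the median of all genes. Kupffer cell, pan-myeloid and lipid-associated macrophage genes lie mostly above 0, with medians of 1.00, 0.54 and 0.78, whereas neutrophil and monocyte genes lie around 0, with medians of 0.03 and -0.04.

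To relate the members to the myeloid RNA of the same tumour, the mean log2 value of 10 genes shared by myeloid cells was taken from each library. These pan-myeloid genes, which include Tyrobp, the colony-stimulating factor receptor Csf1r and Aif1, were higher in each Prox1 OE library than in both Control libraries in 10 of 10 cases, and 5 of 10 were called higher. When scaled by total reads 1 was called higher and the median moved from 0.54 to 0.11, and without Control replicate 1 or 2 the number called was 2 or 1. Aif1, a cytoskeletal protein of macrophages, rose by 0.90 (limma adjusted p = 0.0044), and Csf1r differed by 0.50 (limma adjusted p = 0.064), which passed the test in 4 of 16 alternatives, DESeq2 among them (adjusted p = 0.035). The mean log2 value was 10.30 and 10.04 in Control and 10.92, 10.61 and 10.71 in Prox1 OE libraries, and the summed counts ran from 13537 to 15842 and from 19623 to 25137.

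Relative to this level, Mrc1 did not pass the test. Its log2 fold change was 0.24 (95% interval -0.22 to 0.69, limma adjusted p = 0.37), or 0.030 to 0.446 when single libraries were left out. The relative values of Trem2, Gpnmb, Ly6c2 and Lyz2 were 0.07, 0.11, 0.02 and 0.12. Cd9 and Ccr2 were lower relative to it, by -1.17 (limma adjusted p = 7e-04) and -0.69 (95% interval -1.24 to -0.15, limma adjusted p = 0.035) on the log2 scale. The Ccr2 call was lost without Control replicate 1 (limma adjusted p = 0.20), Control replicate 2 (0.12) or Prox1 OE replicate 3 (0.20), and when the variance trend was left out (0.099). Csf3r, Cx3cr1 and Spp1 had relative values of -0.24, -0.42 and -0.92 and were not called (limma adjusted p = 0.40, 0.16 and 0.25). Leaving out single libraries gave -0.33 to -0.13 for Csf3r, -0.61 to -0.21 for Cx3cr1 and -1.10 to -0.83 for Spp1. Cx3cr1 gained a call without Prox1 OE replicate 1 (Cx3cr1 log2 fold change relative to pan-myeloid genes -0.61, limma adjusted p = 0.022), and Spp1 gained one when the variance trend was left out (limma adjusted p = 0.024). With all libraries and the trend, 0 members were called higher and 2 lower by limma on this scale, with the same counts at an unadjusted p under 0.05, on which 50.9% of all genes were called, 5.49% higher and 45.4% lower (57.2% at an unadjusted p under 0.05, 6.51% higher and 50.7% lower), and the median of all genes was -0.60. Of the 19 other lipid-associated macrophage genes, 1 was called higher and 5 lower by limma on this scale.

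**Figure D4:**
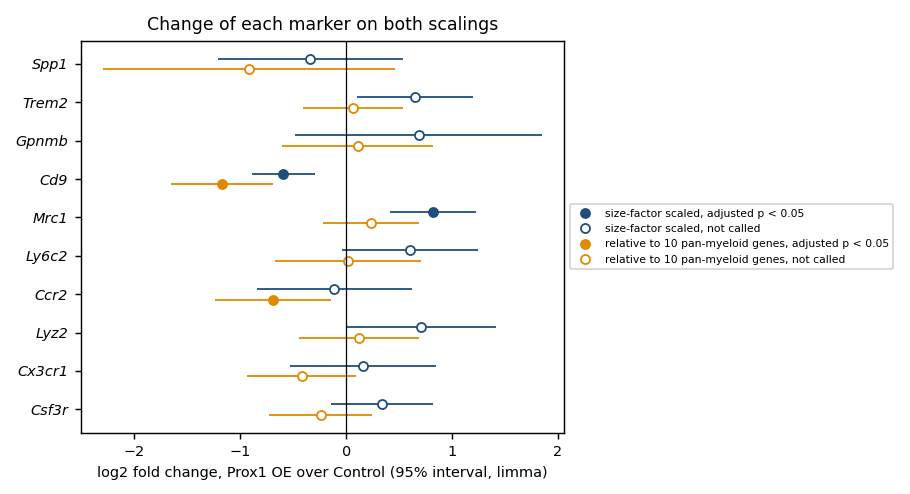
Log2 fold change of each member with its 95% interval, on the normalised counts and relative to the mean log2 value of the 10 pan-myeloid genes, with called values filled. Mrc1 moves from 0.82 to 0.24 and Ccr2 from -0.11 to -0.69 between the scales, and Cd9 is called lower on both, at -0.59 and -1.17.

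Per kilobase, Spp1 was 46.6 and 52.5 times the summed level of the 10 pan-myeloid genes in the Control libraries and 22.2, 31.2 and 22.0 times in Prox1 OE tumours. For Cd9 the ratio was 0.663 and 0.712 in Control and 0.273, 0.319 and 0.276 in Prox1 OE libraries. The same ratio was also lower in every Prox1 OE library for Ccr2, Cx3cr1 and Csf3r, so that 5 of 10 members were lower and 0 higher without overlap, beside 63.7% and 6.17% of all genes tested.

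Of 13 ligands that recruit or maintain myeloid cells, 10 could be tested, and 3 fell and 0 rose by limma (5 and 0 at an unadjusted p under 0.05, 3 and 0 by edgeR, 4 and 0 by DESeq2), with a median log2 fold change of -0.68, and 6 fell when scaled by total reads. Ccl8, a chemokine of monocytes, did not pass the test but was higher in every Prox1 OE library, with 19.7 and 18.6 normalised counts in Control tumours and 40.9, 66.1 and 24.3 in Prox1 OE tumours (log2 fold change 1.04, limma adjusted p = 0.12), and 1 ligand was called higher without Prox1 OE replicate 3. Ccl2, the ligand of Ccr2, had 1246 and 979 normalised counts in Control tumours and 668, 517 and 487 in Prox1 OE tumours, and fell by 1.00 (limma adjusted p = 0.0079). Cx3cl1, the ligand of Cx3cr1, had 925 and 792 against 470, 525 and 505, and fell by 0.78 (limma adjusted p = 0.0076). Csf1, the growth factor of macrophages and ligand of Csf1r, had 1614 and 1432 against 819, 833 and 861, and fell by 0.86 (limma adjusted p = 0.0034). None of these overlapped between the groups. All 3 calls were lost without Control replicate 1 (limma adjusted p = 0.099, 0.11 and 0.060). Csf3, the ligand of Csf3r, had 0.822 and 8.48 normalised counts in Control tumours and no read in Prox1 OE tumours, and was too low to test. The summed list ran from 4767 to 5205 normalised counts in Control and from 2978 to 3215 in Prox1 OE libraries.

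The ratio of ligand to receptor was then compared for 3 pairs, chosen after the values were seen. Each of the 3 ligands was already lower in every Prox1 OE library, so the ratios are not independent of those falls. For Ccl2 over Ccr2 it was 1.53 and 1.65 in Control and 0.703, 0.810 and 1.11 in Prox1 OE libraries. For Cx3cl1 over Cx3cr1 it was 1.00 and 1.20 against 0.367, 0.645 and 0.793, and for Csf1 over Csf1r 0.503 and 0.472 against 0.150, 0.232 and 0.196. The groups did not overlap in any pair, and the mean log2 ratios differed by -0.89, -0.94 and -1.36. In an exact two-sided permutation test each pair gave p = 0.2 (adjusted p = 0.2 over the 3 pairs), the smallest value that the 10 possible splits of 5 libraries allow.

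Receptors and partners of the members were followed in a list of 13 genes. Of these, 2 rose, 5 fell and 6 did not pass the test, with a median log2 fold change of -0.11 (-0.24 to 0.00027 when single libraries were left out). When scaled by total reads 0 rose and 6 fell by limma, and without Control replicate 1 the counts were 1 and 2. Of the osteopontin receptors and integrin subunits, Cd44 fell by 1.35 (limma adjusted p = 0.0026), Itgav by 1.14 (limma adjusted p = 0.0020), Itga9 by 0.47 (limma adjusted p = 0.021) and Itgb1 by 0.43 (limma adjusted p = 0.042). Itgb5 rose by 0.54 (limma adjusted p = 0.011), and Itgb3 (-0.78, limma adjusted p = 0.092) and Itga4 (0.39, limma adjusted p = 0.23) did not pass the test. Cd44 had 3129 and 4156 normalised counts in Control tumours and 1583, 1267 and 1420 in Prox1 OE tumours, without overlap. Cd81, a tetraspanin related to Cd9 and the most abundant of the list, differed by 0.08 on the log2 scale (limma adjusted p = 0.68). Ptgfrn, listed as a partner of Cd9, fell by 0.74 (limma adjusted p = 0.0088). It had 2668 and 2412 normalised counts in Control tumours and 1585, 1690 and 1305 in Prox1 OE tumours. The summed list ran from 74696 to 75965 normalised counts in Control and from 66246 to 69526 in Prox1 OE libraries.

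**Figure D5:**
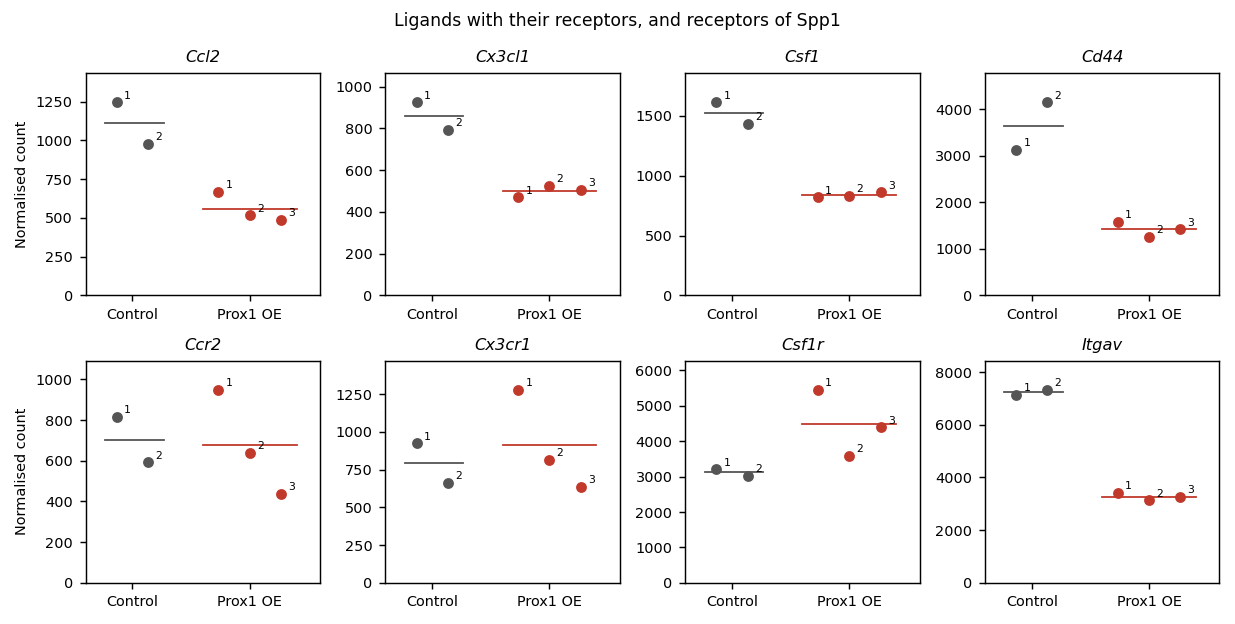
Normalised counts of the ligands Ccl2, Cx3cl1 and Csf1 (upper row), of their receptors Ccr2, Cx3cr1 and Csf1r (lower row) and of the osteopontin receptors Cd44 and Itgav (right), each on its own axis from 0, with 1 point per library, its replicate number and a line at the mean of each group. The ligands, Cd44 and Itgav are lower in all 3 Prox1 OE libraries, whereas Ccr2 and Cx3cr1 overlap and Csf1r is higher in each.

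Libraries of a group also differed. Control replicate 1 was above Control replicate 2 for 9 of 10 members, Mrc1 being the exception, and for 46.5% of all genes tested. Prox1 OE replicate 1 was the highest of its group for 8 of 10 members and 40.0% of all genes, and the highest of all 5 libraries for 7 of 10 members and 16.2% of all genes. Prox1 OE replicate 3 was the lowest of its group for 7 of 10 members and 32.0% of all genes. The mean log2 value of the pan-myeloid genes was likewise higher in Control replicate 1 (10.30) than in Control replicate 2 (10.04) and highest in Prox1 OE replicate 1 (10.92), and its part in the order of the members was not tested.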

How the data were processed

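RNA was taken from dissected liver tumours (2 Control and 3 Prox1 OE libraries). The authors prepared strand-preserving dUTP libraries, mapped the reads with STAR to mm10 and deposited a DESeq2-normalised count table, a signal per gene and library. The counting tool, its strand setting and its treatment of shared reads are not given in the sources used here. All values (100%, within 0.01 reads) were whole multiples of 1 read, so whole reads were recovered for count tests. The deposited table of the authors' own comparison (fold changes and p-values) was not used. No column was left unassigned (0 columns). GENCODE annotation of GRCm38 matched 55137 of 55397 identifiers (99.5%).

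The test covered the 17105 genes whose normalised counts averaged at least 10 and used limma 3.58.1 (R 4.3.3; lmFit and eBayes with trend, no covariate) on log2(normalised count + 1), a scale that understates the change of low genes, two-sided, with Benjamini-Hochberg adjustment over all genes and a threshold of 0.05. For the relative scale, the mean log2 value of 10 pan-myeloid genes was first subtracted in each library. Intervals are 95% intervals from limma. Floors of 3 reads cover counting error only. The members and the 15 other gene lists were chosen with earlier results of these data known. Named genes were the members, Prox1, 9 partners and paralogs, and from each list the called gene with the largest rise, the one with the largest fall, and the most abundant gene. Other genes named from the lists (such as Padi4, Ly6g, Ccl8, Cd14, Folr2, Lyve1, Pecam1, the integrin subunits and the risen genes of the lipid-associated macrophage list) were chosen after their values were seen.

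The alternatives comprised other scalings (TMM, upper quartile, total count), pseudocounts of 0.1 and 10, no filter or a mean of at least 50, no variance trend, edgeR 4.0.16 and DESeq2 1.42.0 on recovered reads, a replicate block, each library left out and, on the relative scale, each pan-myeloid gene left out. The limma and edgeR steps were also run on simulated data with far fewer changed genes than were called here. That run does not test the choice of scaling.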

Additional observations from a re-analysis of the deposited data

How the results depend on the processing

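Of 160 alternative values of the members, 141 kept their direction and side of the threshold, 5 lost a call, 7 gained one and 7 changed sign. On the relative scale these numbers were 192, 4, 3 and 11 of 210, and for the 35 other named genes 481, 58, 9 and 8 of 556. The cause was not tested for any of them. The total count as library size moved the median of all genes from -0.02 to -0.44, and with it 1475 genes were called higher and 6833 lower (2933 and 2769 with the deposited size factors), 0 members higher and 2 lower (8.62% and 39.9% of all genes), and 29 list genes higher and 34 lower (45 and 21 before). Csf3r, S100a9, Cx3cr1, Cd81 and Lyz1 then had log2 fold changes of -0.089, -0.18, -0.27, -0.35 and -0.41. DESeq2 called 3 members higher, where it called 17.3% of all genes higher.

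Leaving out single libraries gave 681 to 3738 genes called higher and 477 to 3753 lower, 0 to 2 members higher and 0 to 1 lower (6.77% to 43.8% of all genes called), 11 to 45 list genes higher and 10 to 25 lower, and on the relative scale 0 members higher and 1 to 3 lower (1.36% to 8.15% and 21.7% to 45.3% of all genes). The smallest counts came without Control replicate 1 (1158 genes in all) and then without Control replicate 2 (2270), where the 1 Control library left was assumed to vary like the others. The log2 fold change ranged from -0.40 to 0.16 for Ccr2, -0.12 to 0.40 for Cx3cr1, -0.31 to 0.38 for Lyz1 and -0.15 to 0.65 for S100a9, and relative to pan-myeloid genes from -0.070 to 0.23 for Trem2, -0.31 to 0.48 for Gpnmb, -0.16 to 0.20 for Ly6c2 and -0.079 to 0.29 for Lyz2. Of the other named genes, Csf1, Ccl2, Cx3cl1, Apoe, Fabp5, Treml4, Ccl9, Trem1, Clec4f, Retnla, Stab1, Stab2, Cyp2e1, Alb, Cd3g, Nkg7 and Siglech lost their call without Control replicate 1. Without Control replicate 2 the call was lost for Tyrobp, Apoe, Fabp5, Treml4, Ccl9, Trem1, Retnla, Stab1, Alb, Cd3g, Nkg7 and Siglech. Apoe, Trem1, Retnla, Cyp2e1, Alb, Cd3g, Nkg7 and Siglech also lost it without at least 1 of the Prox1 OE libraries. The relative value of Ly6c2 was -0.029 with a pseudocount of 10 and -0.0060 without Cybb in the reference.

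The replicate numbers were not shown to pair the samples (correlation of deviations 0.14 and 0.02 for the 2 shared numbers). The replicate block, which drops Prox1 OE replicate 3 because it has no Control of its number, called 4 members higher (Trem2, Gpnmb, Lyz2 and Mrc1), where it called 15.6% of all genes higher. On the relative scale it called 1 member higher, Gpnmb (0.43, limma adjusted p = 0.024), where it called 6.22% of all genes higher. Gpnmb on the normalised counts was 1.03 in it (limma adjusted p = 0.00091). In it Ccr2 was 0.16 and Lyz1 -0.035. Reads were too few to compare Ly6g, at or under 3 reads in every library, and Csf3, with no read in the Prox1 OE libraries. Whether this came from depth or from little expression was not tested.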

Other observations

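Of 5 lymphoid genes tested out of 6, 3 rose and 0 fell by limma, with a median log2 fold change of 1.14 and a sum of 124 to 141 normalised counts in Control and 239 to 398 in Prox1 OE libraries. Cd3g, a subunit of the T cell receptor complex, rose by 1.54 (limma adjusted p = 0.013), and Nkg7, a granule protein of cytotoxic lymphocytes, by 1.44 (limma adjusted p = 0.024). When Control replicate 1, Control replicate 2 or Prox1 OE replicate 2 was left out 0 lymphoid genes were called by limma (3, 2 and 3 at an unadjusted p under 0.05), and without Prox1 OE replicate 3 the number was 1. Of 6 dendritic cell genes, 1 rose and 0 fell by limma (median log2 fold change 1.03, or 0.68 without Prox1 OE replicate 3, sum 568 to 611 in Control and 582 to 737 in Prox1 OE libraries). It was Siglech, a lectin of plasmacytoid dendritic cells, which rose by 1.46 (limma adjusted p = 0.023), a call that was lost in 6 of 15 alternatives. Zbtb46, a transcription factor of conventional dendritic cells that endothelium also expresses, differed by -0.26 on the log2 scale (limma adjusted p = 0.23). When scaled by total reads, 0 dendritic cell genes rose and 1 fell, which was Zbtb46 (-0.69, limma adjusted p = 0.02).

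Stellate cell genes split. Of 6, 2 rose and 2 fell, with a median of 0.09 and a sum of 49239 to 51139 normalised counts in Control and 26283 to 31346 in Prox1 OE libraries. When scaled by total reads 1 rose and 3 fell, with a median of -0.34, and without Prox1 OE replicate 3 the counts were 1 and 2. Lrat, the retinol-esterifying enzyme of quiescent stellate cells, rose by 1.09 (limma adjusted p = 0.0047), whereas the myofibroblast actin Acta2 fell by 1.32 (limma adjusted p = 0.0058) and the collagen gene Col1a1 by 1.23 (limma adjusted p = 0.0033). Among hepatocyte genes, albumin (Alb) rose by 1.69 (limma adjusted p = 0.043), a call that was lost in 7 of 16 alternatives, among them each library left out, and the cytochrome Cyp2e1 by 1.85 (limma adjusted p = 0.014).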
